A study of Mus musculus with 12 samples.

Results

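The Bcl2 family of cell death regulators was examined through 10 genes in the somatosensory cortex of young mice: Bax, Bak1, Bcl2, Bcl2l1, Bcl2l2, Mcl1, Bcl2l11, Bid, Bbc3 and Pmaip1. They were taken by gene symbol from the list of 24452 symbols in the deposited counts, with the transcripts of a symbol summed. All 10 passed the filter on low counts and were tested together with the other genes, 14739 in all. Stranded total RNA was sequenced from male C57BL/6 mice on postnatal day 7, collected 8 hours after the last of repeated intraperitoneal injections of ethanol or saline. The mice were either WT or p53 KO (Trp53tm1Tyj, a germline disruption carried by every cell, bred from heterozygous parents). The groups were WT saline, WT ethanol, KO saline and KO ethanol, with 3 libraries each, and WT saline and KO saline were the controls for ethanol within a genotype.

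Proteins of the Bcl2 family decide whether the outer mitochondrial membrane is opened, the step that releases cytochrome c and starts the caspases in intrinsic apoptosis. Bax and Bak1 form the pore, Bcl2 and its anti-apoptotic relatives hold them back, and BH3-only proteins such as Bbc3 (Puma) and Pmaip1 (Noxa) tip the balance towards death. Bax, Bbc3 and Pmaip1 are textbook targets activated by p53, and ethanol at this age is a widely used model of apoptosis in the developing brain, where Bax is the pore-forming member that most immature neurons need in order to die.

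Because Bax and Bbc3 are the members usually named as direct p53 targets and lie on the same chromosome, the 250 bases before their start sites are shown from RefSeq (build GRCm38.p6). The Bax window was chr7:45466899-45467148 on the minus strand, and the Bbc3 window was chr7:16309333-16309582 on the plus strand. Capitals mark a match to the p53 half-site consensus, which reads the same on both strands.
Bax: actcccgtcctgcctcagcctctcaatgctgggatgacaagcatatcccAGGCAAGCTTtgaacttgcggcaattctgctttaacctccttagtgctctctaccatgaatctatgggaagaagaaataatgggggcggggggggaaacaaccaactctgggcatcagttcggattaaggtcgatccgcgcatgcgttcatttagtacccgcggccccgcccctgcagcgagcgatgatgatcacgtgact
Bbc3: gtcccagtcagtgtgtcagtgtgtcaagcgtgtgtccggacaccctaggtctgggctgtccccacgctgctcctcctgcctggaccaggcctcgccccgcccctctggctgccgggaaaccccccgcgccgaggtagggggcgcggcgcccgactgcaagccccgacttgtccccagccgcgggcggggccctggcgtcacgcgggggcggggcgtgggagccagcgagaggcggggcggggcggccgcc
The match in the Bax window began 201 bases before the start site. The Bbc3 window shown held none. Among 14 such windows of 9 members this was the only one with a match, and of all 32851 windows listed, 7.13% held one. A match of letters says nothing of whether the factor binds there, and Pmaip1 had no entry.

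Depth and tissue composition differed between libraries. Total counts ran from 719735 in KO ethanol replicate 1 to 17066392, a 23.7-fold range, and that library and WT saline replicate 1 (1953154) are the only ones whose names open with L instead of P. No source used here ties these letters to the laser-microdissection or hole-punch method by which the cortex was collected. Summed neuronal markers (8 genes, none at 0 in any library) lay between 6610 and 8390 CPM (counts scaled to a common library size) under saline and between 3780 and 6270 CPM after ethanol in WT mice, without overlap, and between 4890 and 6840 and between 4200 and 8010 CPM in KO mice. Markers of striatum and hippocampus (6 genes, 2 of them at 0 in some library) summed to 58.1 to 89.3 CPM under saline and 117 to 610 after ethanol in WT mice, again without overlap, and to 42.9 to 115 and 73.3 to 272 CPM in KO mice. Summed erythrocyte markers (5 genes) ranged from 322 to 2410 CPM in WT saline, above the WT ethanol and KO saline libraries (57.7 to 257), but overlapped KO ethanol (54.3 to 1120). Choroid plexus markers (4 genes) ranged from 0 to 5000 CPM over all libraries, and all 4 were at 0 in at least 1 library. Trp53 itself was not lower in KO mice. Under saline it averaged 14.8 ± 11.3 CPM in WT and 16.8 ± 9.35 in KO, with overlap, and after ethanol 14.0 ± 6.43 in WT and 26.7 ± 2.91 in KO (SD, n = 3), where every KO library (23.4 to 28.7) lay above every WT library (7.23 to 20.0), with an adjusted p = 0.982 by edgeR. Its counts are given per transcript and do not show which exons were read, so they do not check the genotype labels. The paper reports that genotypes were checked by PCR. It also reports that Trp53 reads in KO mice came from outside the deleted region, with more coverage of the last exons.

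Per unit of transcript length, Bax was the most abundant member. Its RPKM averaged 98.7 ± 22.9 (SD, n = 12 libraries), and it lay above the next gene, Bcl2l1, in all 12. RPKM here are the deposited values, scaled by transcript length and library size and further normalized by the authors, summed over transcripts. Bcl2l1 (Bcl-xL, the main survival protein of differentiated neurons) stood at 28.3 ± 6.08 RPKM and Mcl1, a short-lived survival protein, at 26.0 ± 5.2 RPKM. These neighbours could not be ordered, since Bcl2l1 was the higher one in 6 of 12 libraries.

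Bcl2l2 (Bcl-w, another survival protein) followed with 16.9 ± 4.71 RPKM. Bid, a BH3-only protein that carries the death receptor signal to mitochondria, stood at 11.7 ± 2.84 RPKM, beside Bak1 at 11.3 ± 2.31. Bid exceeded Bak1 in 4 of 12 libraries, so that their order by mean was not their order in most libraries. Bbc3 averaged 6.66 ± 3.08 RPKM and was above Bcl2 in 11 of 12 libraries.

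At the low end, Bcl2, the founding member, stood at 1.69 ± 0.504 RPKM and Bcl2l11 (Bim, a BH3-only protein induced when trophic support is lost) at 1.45 ± 0.55 RPKM. Pmaip1 was the lowest by mean, at 1.06 ± 1.27 RPKM, and its SD exceeded its mean. Ordered by mean log2 CPM, which takes no account of length, Mcl1 came first and Bax second. The authors' RPKM share nearly the same distribution in every library, by a normalization beyond length and depth that is not described.

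**Figure D1:**
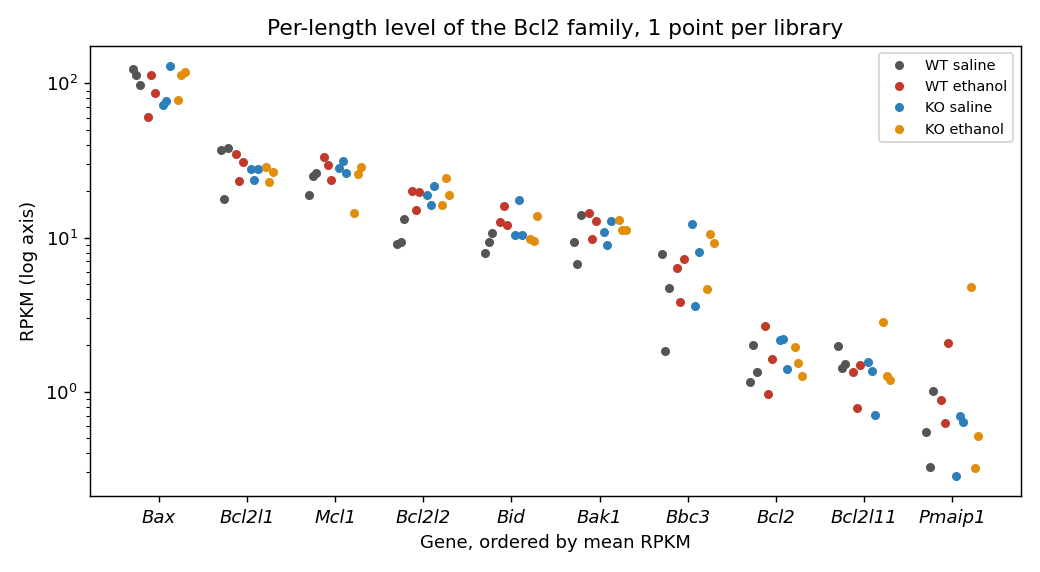
RPKM of the 10 genes (log axis), 1 point per library, colored by group and ordered by the mean of all 12 libraries. Bax lies above every other member in all 12 libraries, while Bcl2l1 and Mcl1 interleave and Pmaip1 spreads most.

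The pore-forming gene Bax was higher in WT saline than in the other groups by the count model, but the difference was not called after correction. Its CPM, scaled by TMM factors, was 120, 254 and 130 in the WT saline libraries and 48.0, 98.5 and 90.1 in the WT ethanol libraries. The KO mice had 58.4, 71.0 and 102 CPM under saline and 104, 84.2 and 90.4 CPM after ethanol. Every WT saline library lay above every library of the other groups, with the smallest gap to KO ethanol, and WT saline replicate 2 was the highest of all. The means for saline and ethanol were 168 ± 74.7 and 78.9 ± 27.1 CPM in WT mice and 77.2 ± 22.5 and 92.7 ± 9.95 CPM in KO mice (SD, n = 3).

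Ethanol against saline in WT mice gave a log2 fold change of -1.09 for Bax (SE 0.39, adjusted p = 0.209 by edgeR, a quasi-likelihood test corrected by Benjamini-Hochberg over all genes). KO against WT mice under saline gave -1.12 (SE 0.39, adjusted p = 0.179 by edgeR). Both comparisons rest on the same 3 WT saline libraries, so they are not independent of each other. An exact two-sided permutation test of the 3 libraries against 3 gave p = 0.1 for each, the smallest it allows.

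The Bax difference depended on the libraries, the scaling and the unit. Without WT saline replicate 2, the library with the highest Bax CPM, the log2 fold changes were -0.68 for ethanol in WT mice and -0.71 for KO under saline, with adjusted p = 0.504 and adjusted p = 0.487 by edgeR. The uncorrected level of 0.05 was also missed for ethanol in WT mice without WT ethanol replicate 1 (-0.85) and for KO under saline without KO saline replicate 1 (-0.96). That same WT saline replicate 2 had the lowest TMM factor, 0.564. With library size alone in place of TMM factors, Bax gave -0.55 in both comparisons (adjusted p = 0.389 and adjusted p = 0.387 by edgeR), while the median of all genes stood at 0.49 in both. Without the 2 libraries whose names open with L they were -1.36 and -1.39, with adjusted p = 0.0331 and adjusted p = 0.0267 by edgeR, in a fit that called 21.5% and 25.3% of all genes in these comparisons. Without WT saline replicate 1 alone, the log2 fold change of KO against WT under saline was -1.34 with adjusted p = 0.0448 by edgeR, in a fit that called 14.5% of all genes. On log2(RPKM + 1), limma gave -0.39 and -0.31, with adjusted p = 0.633 and adjusted p = 0.691. The RPKM differ from the counts in normalization as well as in unit. The RPKM of Bax was 124, 114 and 97.5 in WT saline against 60.9, 114 and 86.7 in WT ethanol, where the groups overlapped. Bax also overlaps the protein-coding Gm45808 on the same strand, so reads could be divided between these genes.

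Transcript length moved with these comparisons over all genes. Bax has the shortest transcript of the family, 867 bases. The 887 genes under 1000 bases had a median log2 fold change of -1.18 for ethanol in WT mice and -1.36 for KO under saline, while genes over 6000 bases had 0.65 and 0.70. The median transcript length of the counts was 2678, 1675 and 2324 bases in the WT saline libraries, against 2804 to 3226 in the WT ethanol and KO saline libraries.

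With each library's trend along length and GC content removed, the log2 fold change of Bax was -0.54 for ethanol in WT mice and -0.37 for KO under saline, with adjusted p = 0.383 and adjusted p = 0.572 by edgeR. When the 2 libraries named with L were also left out, it was -0.73 and -0.54, with adjusted p = 0.137 and adjusted p = 0.26 by edgeR, in a fit chosen after seeing the data that called 21% of all genes for ethanol in WT mice. The neuronal, striatal and hippocampal, and erythrocyte markers also differed between WT saline and WT ethanol without overlap, and their part in the Bax values was not tested.

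**Figure D2:**
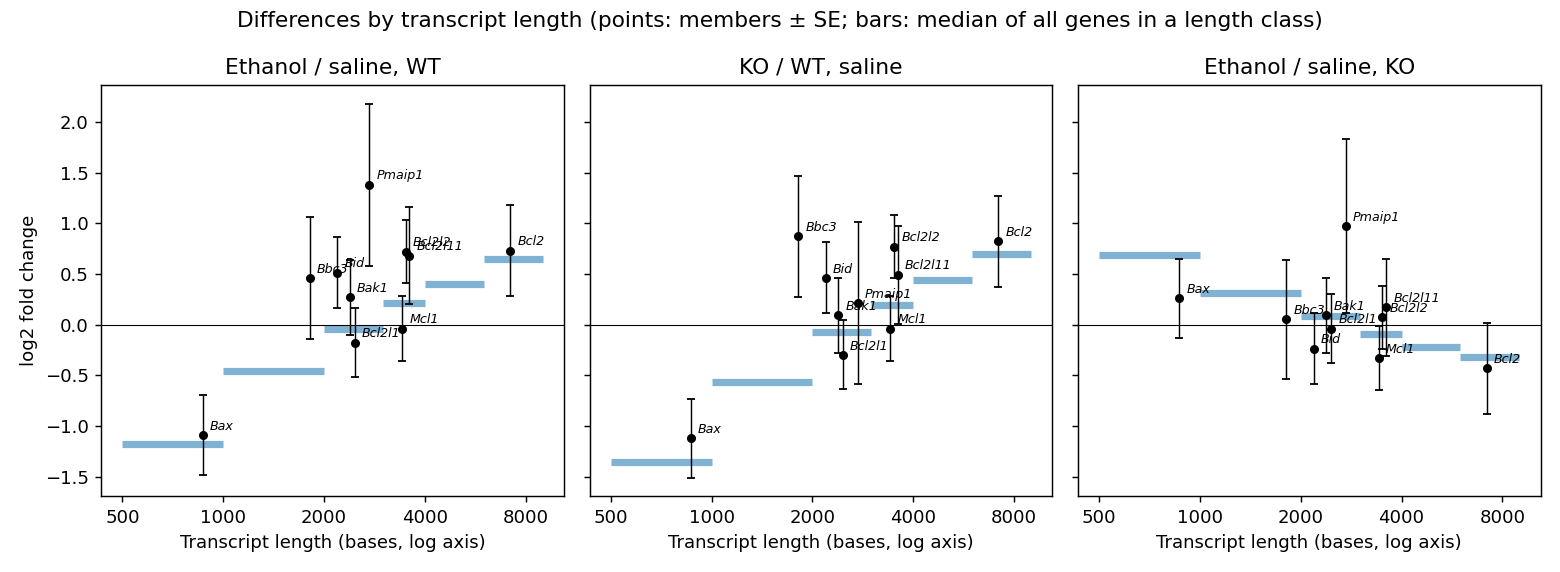
Log2 fold change against transcript length (bases, log axis) for 3 comparisons. Points are the 10 genes ± SE and blue bars the median of all genes in a length class, the first class being open below 1000 bases and the last above 6000. Bax lies near the bar of the shortest class in the first and second panels, where the bars climb with length; in the third panel the bars descend.

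Bak1, the other pore former, showed no such difference. Its CPM ranged from 13.8 to 33.6 under saline and 22.3 to 31.6 after ethanol in WT mice, and from 21.2 to 29.0 and 24.9 to 30.1 in KO mice. All 4 groups overlapped. The log2 fold change was 0.27 (SE 0.37) for ethanol in WT mice and 0.09 (SE 0.37) for KO under saline.

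Among the anti-apoptotic genes, only Bcl2l2 was lower in WT saline than in every other group without overlap. Its CPM was 36.5, 35.5 and 54.7 in WT saline and 72.4, 58.0 and 79.0 in WT ethanol. The KO mice had 69.4, 65.4 and 81.4 CPM under saline and 66.9, 87.5 and 70.9 CPM after ethanol. All WT saline libraries lay below all libraries of the other groups, and the other groups overlapped each other.

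For Bcl2l2 the log2 fold change was 0.72 (SE 0.31, adjusted p = 0.243 by edgeR) for ethanol in WT mice. KO against WT under saline gave 0.77 (SE 0.31, adjusted p = 0.206 by edgeR). Of the 12 fits that left out 1 library, 4 passed the uncorrected level of 0.05 for ethanol in WT mice and 8 for KO under saline. Fits that missed it in both comparisons included those without WT saline replicate 1 (0.57 and 0.64) and without WT saline replicate 2 (0.57 and 0.63). Limma on log2(RPKM + 1) gave 0.75 and 0.80 for the same comparisons. With the trend along length and GC content removed they were 0.39 and 0.46, with adjusted p = 0.417 and adjusted p = 0.367 by edgeR. The gene overlaps the protein-coding Gm20521 on the same strand, so reads could be divided between the pair.

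Bcl2 had a CPM of 7.20, 12.5 and 8.47 in WT saline and 19.3, 18.6 and 12.3 in KO saline, where the highest WT library was just above the lowest KO library. The log2 fold change of KO against WT under saline was 0.82 (SE 0.45, adjusted p = 0.315 by edgeR), and for ethanol in WT mice it was 0.73 (SE 0.45). With 7188 bases Bcl2 has the longest transcript of the family. With the length and GC trend removed, these values were -0.04 and -0.12, of the opposite sign.

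For Bcl2l1 and Mcl1 the groups overlapped in every comparison. Bcl2l1 averaged 91.5 ± 34.0 CPM under saline and 80.7 ± 14.9 after ethanol in WT mice, and 74.1 ± 5.32 and 72.5 ± 8.0 in KO mice (SD, n = 3). Mcl1 averaged 109 ± 27.6, 106 ± 8.03, 107 ± 14.0 and 84.1 ± 22.5 CPM in the same order of groups. The sign of both depended on scaling: for ethanol in WT mice the log2 fold changes were -0.18 for Bcl2l1 and -0.04 for Mcl1 with TMM factors, and 0.17 and 0.46 with library size alone, which moved the median of all genes from 0.06 to 0.49.

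**Figure D3:**
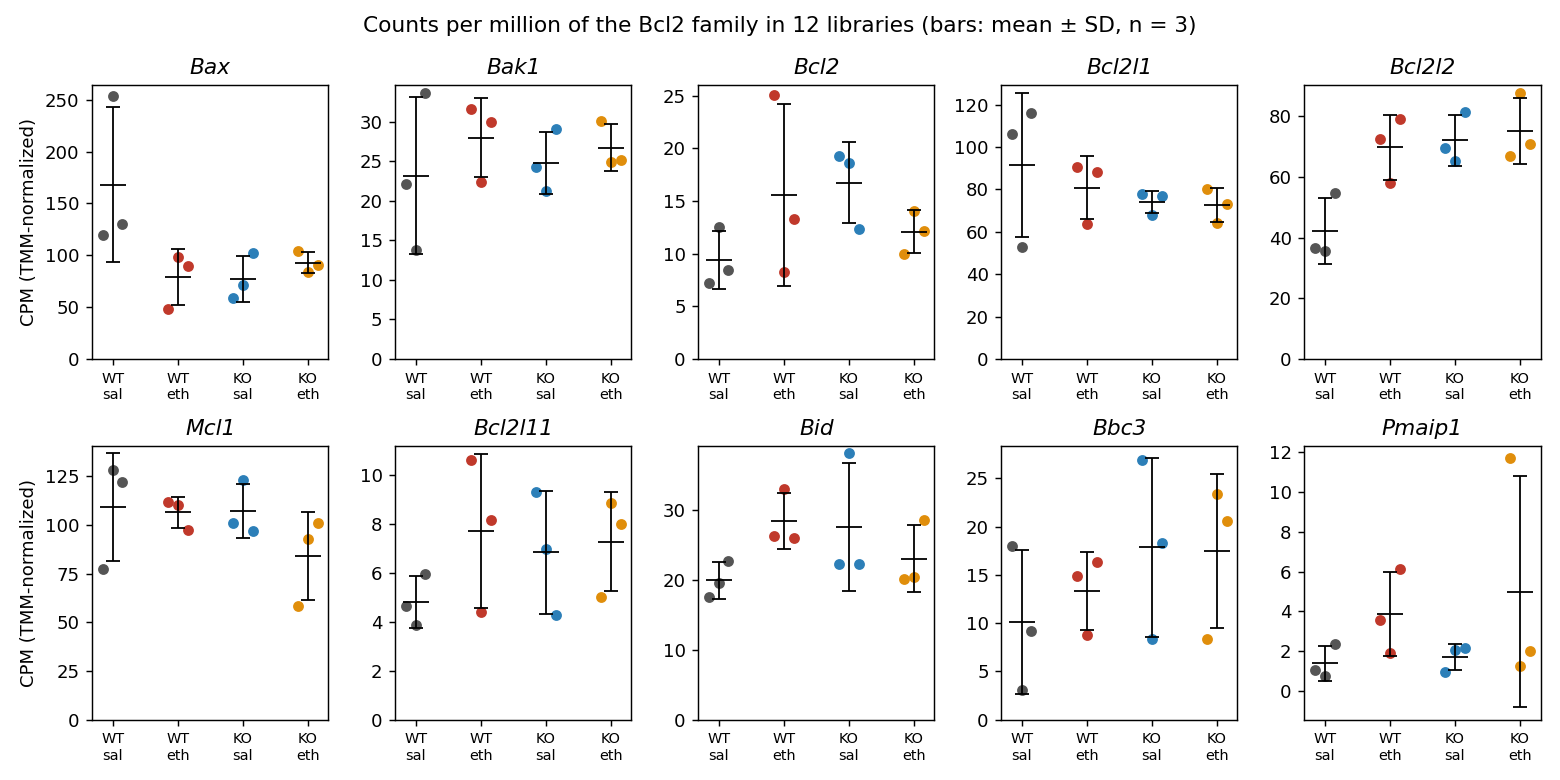
CPM (TMM-normalized) of each gene in the 12 libraries, 1 panel per gene; points are libraries, and the black bars are the mean ± SD of 3 libraries. Bax in WT saline (120 to 254) and Bcl2l2 in WT saline (35.5 to 54.7) stand clear of the other groups, and the remaining panels overlap, apart from Bid in WT mice.

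In the fit with all libraries and TMM factors, the BH3-only genes gave no call in any comparison. Few genes of any kind were called there: 0.0746% of all genes for ethanol in WT mice, 0.0543% for KO under saline, and none in the other comparisons. Bid had a CPM of 17.5, 19.5 and 22.7 in WT saline and 26.3, 33.0 and 25.9 in WT ethanol. The WT ethanol libraries all lay above the WT saline libraries, yet the log2 fold change was 0.51 (SE 0.35) with adjusted p = 0.432 by edgeR. In KO saline its CPM was 22.2, 38.1 and 22.3, which overlapped WT saline.

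Bbc3 varied widely within groups. In WT mice its CPM was 18.0, 3.12 and 9.21 under saline and 14.9, 8.78 and 16.3 after ethanol. In KO mice it was 26.9, 8.32 and 18.3 under saline and 8.36, 23.4 and 20.6 after ethanol, where the lowest value came from 5 counts. All groups overlapped. KO against WT under saline gave a log2 fold change of 0.87 (SE 0.60, adjusted p = 0.426 by edgeR), and the main effect of Genotype was 0.67 (SE 0.42, adjusted p = 0.631 by edgeR).

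These values moved with single libraries. Without WT saline replicate 2, KO against WT under saline was 0.43, without KO saline replicate 1 it was 0.45, and without WT saline replicate 1 it was 1.46 (adjusted p = 0.108 by edgeR). Ethanol in WT mice gave 0.46 (SE 0.60) with all libraries and 1.02 without WT saline replicate 1. Bbc3 has the highest GC content of the family (65.2%). With the trend along length and GC content removed, KO against WT under saline was 0.94 with adjusted p = 0.225 by edgeR, close to the value before removal, and without the 2 libraries named with L it was 1.44 with adjusted p = 0.0759 by edgeR. With both changes made at once it was 1.11 (SE 0.30, adjusted p = 0.0228 by edgeR), in a fit chosen after seeing the data that called 22.4% of all genes. In that same fit the main effect of Genotype was 0.71 (adjusted p = 0.0327 by edgeR), with Bbc3 higher in KO, and 19.5% of all genes were called.

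Pmaip1 was near the limit of what the counts can show. In WT mice its CPM was 1.03, 0.735 and 2.38 under saline (2, 4 and 32 counts) and 3.57, 1.93 and 6.11 after ethanol (63, 11 and 66 counts). In KO mice it was 0.965, 2.05 and 2.14 under saline (11, 35 and 29 counts) and 11.7, 1.26 and 2.03 after ethanol (7, 16 and 32 counts). The groups overlapped in both genotypes. The highest CPM of all came from 7 counts in the shallowest library. The log2 fold change of ethanol was 1.38 (SE 0.80, adjusted p = 0.356 by edgeR) in WT mice and 0.97 (SE 0.86) in KO mice.

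Bcl2l11 was likewise low, at 4.81 ± 1.05 CPM under saline and 7.71 ± 3.12 after ethanol in WT mice, and 6.85 ± 2.51 and 7.28 ± 2.01 in KO mice (SD, n = 3). Every pair of groups overlapped. The log2 fold change of ethanol in WT mice was 0.68 (SE 0.48), while limma on log2(RPKM + 1) gave -0.26.

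Counted over the family, ethanol in WT mice passed an uncorrected p of 0.05 for 2 of 10 genes, Bcl2l2 above and Bax below saline. Over all genes tested 18.3% did so. None of the 10 had an adjusted p under 0.05, against 0.0746% of all genes, and 2 had an adjusted p under 0.30, against 22.5%. Groups did not overlap for 3 of 10 genes (Bax, Bcl2l2 and Bid), against 19.6% of all genes. The median log2 fold change of the 10 was 0.48, and of all genes 0.06.

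For KO against WT under saline, 2 of 10 genes, again Bcl2l2 and Bax, passed an uncorrected p of 0.05, against 19.6% of all genes. None had an adjusted p under 0.05 (0.0543% of all genes) and 2 had one under 0.30 (25.8%). Groups did not overlap for 2 of 10 genes, against 22.9%. Since the WT saline libraries enter this comparison and the former one, the values stand side by side and are not separate evidence. In bulk tissue, fewer cells of a type and less RNA per cell cannot be told apart.

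In KO mice, ethanol gave no member an uncorrected p under 0.05, against 3.15% of all genes. The log2 fold changes of the 10 ran from -0.43 to 0.97, and the lowest adjusted p was 0.999 by edgeR. Bax gave 0.26 (SE 0.39) and Bcl2l2 0.07. No member's groups were free of overlap, against 10.8% of all genes.

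After ethanol, KO against WT mice likewise gave no member an uncorrected p under 0.05, against 3.24% of all genes, and no member without overlap, against 12.7%. The values ran from -0.34 to 0.46, and Bax gave 0.23 (SE 0.39). Both comparisons use the KO ethanol group, whose first library is the shallowest. Without that library no member passed an uncorrected p of 0.05 either, against 1.83% of all genes for ethanol in KO mice and 2.72% for KO after ethanol. A p above the threshold does not show that the groups were alike.

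The Genotype x Treatment interaction asks whether ethanol acted differently in the 2 genotypes. For Bax it was 1.35 (SE 0.55, adjusted p = 0.29 by edgeR), the ethanol log2 fold change in KO minus that in WT. This was 1 of 10 members at an uncorrected p under 0.05, against 15.2% of all genes, and 1 of 10 at an adjusted p under 0.30, against 11.1%; no gene had an adjusted p under 0.05 by edgeR. With the length and GC trend removed it was 0.09. The interaction was -1.16 for Bcl2 (SE 0.63, adjusted p = 0.402 by edgeR) and -0.65 for Bcl2l2 (SE 0.44, adjusted p = 0.494 by edgeR).

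No member showed a main effect of Treatment at an uncorrected p of 0.05, against 7.09% of all genes, and none had an adjusted p under 0.30, against 0.00678%. The lowest p belonged to Pmaip1 (log2 fold change 1.18, SE 0.59, adjusted p = 0.695 by edgeR). No member showed a main effect of Genotype either, against 7.67% of all genes, and the lowest p belonged to Bcl2l2 (0.44, SE 0.22, adjusted p = 0.623 by edgeR).

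**Figure D4:**
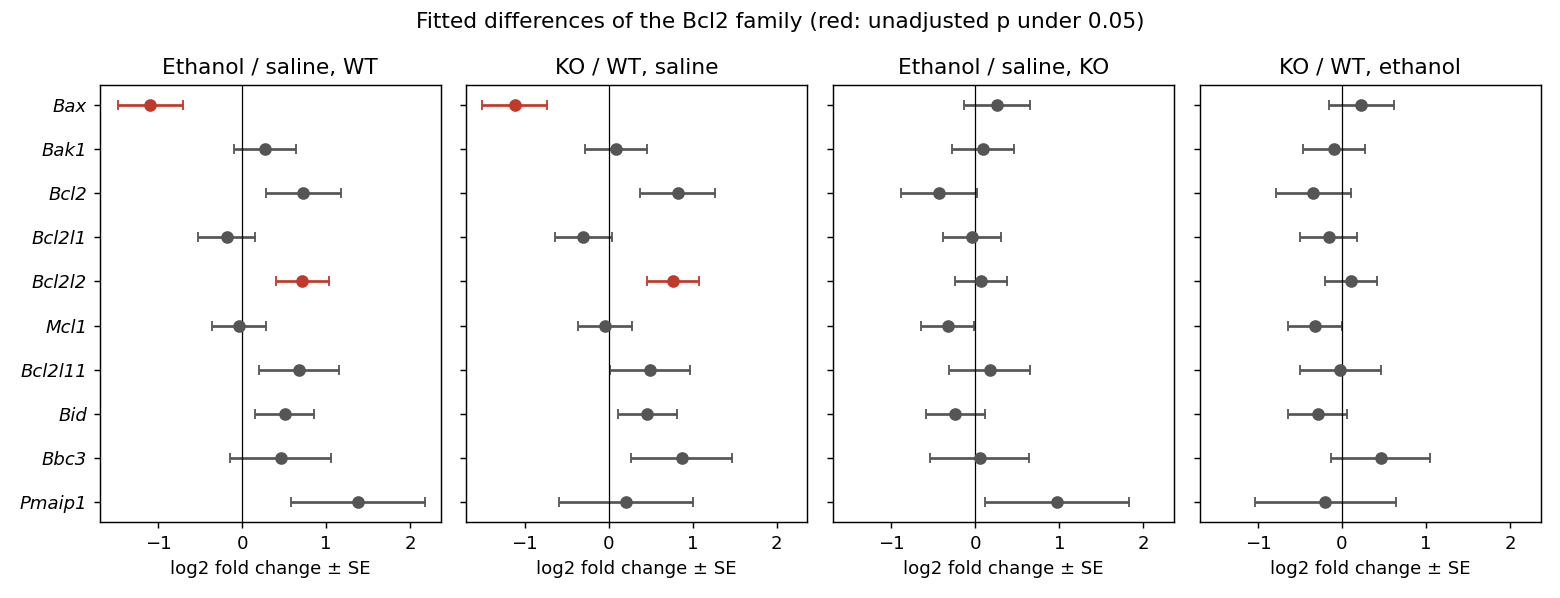
Log2 fold change ± SE of the 10 genes in the 4 comparisons between groups. Red points have an uncorrected p under 0.05 and are Bax and Bcl2l2 in the first and second panels, which share the WT saline libraries; the other panels hold none.

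The isoforms counted for a member could be followed where several transcripts are listed. For Bcl2l1, NM_009743 held 67.1% of the counts over all libraries and NM_001289716 held 20.9%. The share of NM_001289716 ran from 7.98% to 84.2% among the WT saline libraries, and from 14.3% to 15.6% among the WT ethanol libraries. Bcl2l11, whose splice forms differ in how strongly they kill, was spread over NM_207681 (32.9%), NM_207680 (30.4%) and NM_009754 (29.9%). Those shares rest on few counts, as the sum for the gene was 3 in the shallowest library. For Bcl2, NM_009741 held 99.9%.

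The remaining members of the family were followed as a list of 15 genes, of which 9 passed the filter. For ethanol in WT mice 1 of the 9 was above and 0 below saline at an uncorrected p of 0.05, and none at an adjusted p of 0.05, while 18.3% of all genes passed the uncorrected level, with a median log2 fold change of -0.28 against 0.06 for all genes. That gene was Hrk, a BH3-only gene of neurons, with 1.71 (SE 0.57, adjusted p = 0.203 by edgeR). Under saline, where 19.6% of all genes passed that level, Hrk was also above WT in KO (1.32, SE 0.57) and Bok, a Bax-like pore former, was below it (-1.0, SE 0.30, adjusted p = 0.176 by edgeR).

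A list of 17 other genes of the mitochondrial death pathway, all tested, included caspases, their regulators and the Vdac channels. Of these, 3 were below saline after ethanol in WT mice at an uncorrected p of 0.05 and 0 above, a share near the 18.3% of all genes. The median was -0.36. Cycs, cytochrome c itself, gave -1.51 (SE 0.67, adjusted p = 0.251 by edgeR) and Vdac2, a channel of the outer membrane, -0.95 (SE 0.42). Under saline, 3 were below and 0 above WT in KO (19.6% of all genes passed), where Cycs gave -1.63 (SE 0.67).

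Of 19 other p53 targets tested, 2 were above and 1 below saline after ethanol in WT mice at an uncorrected p of 0.05, against 18.3% of all genes. Ei24 gave -1.22 (SE 0.35, adjusted p = 0.184 by edgeR). Mdm2, the ligase that degrades p53, gave 0.93 (SE 0.32), and Sesn2 gave 2.1 (SE 0.83). In KO under saline 2 were above and 2 below WT, against 19.6% of all genes. Those above were Sesn2 (1.95, SE 0.83) and Polk (1.46, SE 0.63), both at 0 in at least 1 library. Those below were Ei24 (-1.13, SE 0.35) and Perp (-1.43, SE 0.50), a membrane protein of p53-dependent death. For the main effect of Genotype, 0 were above and 4 below WT at that level, against 7.67% of all genes. They were Perp, Ei24, Fas and Phlda3, and 0 had an adjusted p under 0.05 by edgeR.

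Among 12 transcription factors that regulate BH3-only genes, 2 were above saline after ethanol in WT mice at an uncorrected p of 0.05 and 0 below, against 18.3% of all genes. They were Foxo3, which drives Bcl2l11 and Bbc3 (2.25, SE 0.71), and Fos (2.11, SE 0.77), with adjusted p = 0.197 and adjusted p = 0.212 by edgeR. Both were listed at 0 in at least 1 library, so their fitted values depend on the prior count. In KO mice, ethanol gave 0 genes past an uncorrected p of 0.05 in any of these 4 lists, against 3.15% of all genes.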

How the data were processed

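Stranded total RNA from somatosensory cortex was sequenced in 12 libraries. The authors aligned reads to mm10 (Bowtie2 in TopHat) and Partek Flow gave 1 value per RefSeq transcript; its settings and version are not given in the sources used here. The deposited estimated counts are unscaled and hold fractions. The deposited RPKM share nearly 1 distribution across libraries, so they carry a normalization beyond length and depth that the sources do not state. Counts were summed per symbol, rounded and fitted with edgeR 4.0.16 (R 4.3.3; default low-count filter, TMM factors, quasi-likelihood test on 4 group means, 7 contrasts), two-sided, with Benjamini-Hochberg adjustment over 14739 genes. A call is an adjusted p under 0.05; the study's levels of p under 0.05 and adjusted p under 0.30 were also counted. SEs come from the F statistics. Totals were 719735 to 17066392 counts per library. That the 3 libraries of a group come from separate mice is not stated per library, so p-values measure only the spread between these libraries. Alternatives used DESeq2 1.42.0, limma 3.58.1 and an unmoderated linear model on RPKM. Lengths and GC content were those of GENCODE transcripts tied to RefSeq on that build, for 97.8% of symbols. Fits were tested on simulated data. The members and gene lists were chosen with earlier results of these data known; all members are named, and from each list only the genes with the smallest p.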

Additional observations from a re-analysis of the deposited data

Results flagged for a closer look

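The difference between genotypes in the response of Bax to ethanol passed the uncorrected level of 0.05: subtracting its log2 fold change in WT mice (-1.09) from that in KO mice (0.26) gave 1.35 (SE 0.55, adjusted p = 0.29 by edgeR). At the uncorrected level 15.2% of all genes passed, and the Bax value did not pass the adjusted level. Without WT saline replicate 2 it was 0.95 with adjusted p = 0.449 by edgeR, and without WT ethanol replicate 1, KO saline replicate 1 or KO saline replicate 2 it was 1.13, 1.22 and 1.29 and missed the uncorrected level too. With the length and GC trend removed, Bax gave a log2 fold change of -0.54 for ethanol in WT mice and -0.46 in KO mice. Groups of 3 libraries are too small to look for single libraries that stand apart. From the same RNA-Seq data, the paper lists Bax among transcripts that were lower in WT and higher in KO mice after ethanol. The value given here is therefore not independent of that statement.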

How the results depend on the processing

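Of 337 values of 29 member results under 12 alternatives, 254 kept their direction and their side of an uncorrected p of 0.05, 25 lost it, 24 gained it and 34 changed sign; the causes were not tested. Depth limits Pmaip1, Bcl2l11, Bbc3 and Bcl2, each with 3 to 7 counts in the shallowest library. The filter of 10 counts in every library removed the members that fell short of it. No paired analysis was possible because the labels give no replicate numbers; those used here follow the order of the samples within a group and only name them.

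Signs changed as follows, ethanol in WT mice first and KO under saline second. With library size alone Bcl2l1 was 0.17 and 0.07 and Mcl1 0.46 and 0.46. With at least 10 counts in every library Mcl1 was 0.12 and 0.10. On log2(RPKM + 1), log2(RPKM + 0.1) and RPKM itself, Mcl1 was 0.29 and 0.29, 0.30 and 0.30, and 5.51 and 5.21 RPKM, and Bcl2l11 was -0.26 and -0.27, -0.44 and -0.46, and -0.43 and -0.43 RPKM. Pmaip1 in KO under saline was -0.07, -0.15 and -0.09 RPKM there. With the length and GC trend removed, Bcl2 was -0.12 and -0.04, and Bak1 -0.04 in KO under saline. For Bax that fit gave -0.46 for ethanol in KO mice and -0.28 for KO after ethanol, and for Bcl2 an interaction of 0.07. With the L libraries also left out, Bak1 was -0.14 and -0.22 and Bcl2 -0.30 and -0.22. Bax was then -0.37 and -0.19 in the KO ethanol comparisons, and the Bcl2 interaction 0.17.

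Counts of members at an uncorrected p under 0.05 moved as follows, with the share of all genes in the same fit in brackets. For ethanol in WT mice (2) it was 4 with library size alone (20.3%) and 3 with trend and L libraries removed (36.4%). It was 1 with at least 1 count in any library (16.5%) and without the L libraries (37.3%). It was also 1 on log2(RPKM + 1) (11.7%), log2(RPKM + 0.1) (11.1%) and RPKM (10.3%), and 0 with the trend removed (19%). For KO under saline (2) it was 3 with library size alone (20.3%) and 1 with the trend removed (17.1%). It was also 1 on log2(RPKM + 1) (12.2%), log2(RPKM + 0.1) (11.5%) and RPKM (11%). For the interaction (1) it was 0 on log2(RPKM + 1) (11.5%), log2(RPKM + 0.1) (11.2%) and RPKM (10.2%). It was also 0 with the trend removed (8.87%), and with the L libraries also left out (15.6%). For Treatment (0) it was 1 with DESeq2 (8.51%), with the strict filter (4.93%), on log2(RPKM + 0.1) (4.55%) and on RPKM (4.56%). It was 2 with library size alone (8.33%) and 3 with trend and L libraries removed (32.8%). For Genotype (0) it was 1 with DESeq2 (9.49%), its size factors (7.68%), library size alone (7.54%) and the strict filter (6.61%). It was also 1 on log2(RPKM + 1) (5.62%), log2(RPKM + 0.1) (5.2%) and RPKM (4.97%), and without the L libraries (34.2%). It was 3 with trend and L libraries removed (36.1%). At an adjusted p under 0.05 (0 throughout) it was 1 without the L libraries for ethanol in WT mice (21.5%) and for KO under saline (25.3%), Bax in both. With trend and L libraries removed it was 1 for KO under saline (22.4%) and for Genotype (19.5%), Bbc3 in both.

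Leaving out 1 library at a time, members at an uncorrected p under 0.05 numbered 0 to 2 for ethanol in WT mice (9.5% to 31.7% of all genes). They numbered 0 to 2 for KO under saline (11% to 33.6%), for the interaction (9.8% to 23.6%) and for Treatment (3.53% to 18.9%). For Genotype they numbered 0 to 1 (3.68% to 22.9%). At an adjusted p under 0.05 they numbered 0 to 1 for KO under saline, where the fit without WT saline replicate 1 called 14.5% of all genes. The log2 fold changes for ethanol in WT mice ran from -1.33 to -0.68 for Bax, 0.57 to 0.96 for Bcl2l2, -0.04 to 0.66 for Bak1, -0.49 to 0.04 for Bcl2l1 and -0.29 to 0.05 for Mcl1. Under saline they ran from -1.41 to -0.71 for Bax, 0.63 to 1.01 for Bcl2l2, -0.20 to 0.49 for Bak1, -0.26 to 0.07 for Mcl1 and -0.14 to 1.03 for Pmaip1 and 0.43 to 1.46 for Bbc3, whose range for ethanol in WT mice was 0.0 to 1.02. Bcl2l2 for ethanol in KO mice ran from -0.04 to 0.19, Bax for KO after ethanol from -0.01 to 0.47, and the Bax interaction from 0.95 to 1.67.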
